A study of Homo sapiens with 6 samples.

Results

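The genes described here are 10 components of transforming growth factor beta (TGF-beta) signalling, chosen by name from the 27605 genes of the deposited expression table. They are the ligands TGFB1 and TGFB2, the latent ligand binding protein LTBP3, the receptors TGFBR1 and TGFBR2, the signal transducers SMAD2, SMAD3 and SMAD4, and the feedback regulators SMAD7 and SKIL. All 10 were in the table, and 9 of them passed the filter for testing, which required the average of the 6 libraries to reach 0.5 FPKM. The rule that picked them was a list of names and held no threshold on a measured value, but the list was drawn up with earlier results of these data known. All 10 carried the annotation of the TGF-beta receptor signalling pathway in the table, together with 95 genes in all, and 8 of the 10 were among the 85 genes annotated to the KEGG TGF-beta signaling pathway.

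RNA was sequenced from cells labelled HepG2, a cell line derived from a human liver tumour, after lentiviral delivery of a short hairpin RNA (shRNA). The shNC group (3 libraries) carried a control hairpin and had the genotype WT, and the shARHGEF2 group (3 libraries) carried a hairpin against ARHGEF2, a guanine nucleotide exchange factor that activates RhoA, and had the genotype ARHGEF2 knockdown. Both groups were grown in DMEM with 10% fetal bovine serum, and the labels name no TGF-beta treatment. Neither the sharing of 1 hairpin by the shARHGEF2 libraries nor the origin of replicates from separate cultures is stated, so the p-values measure only the spread between these libraries. Poly(A) RNA was used, the second strand was marked with dUTP, and the adapters carried molecular identifiers. Levels are given in FPKM, fragments normalised for transcript length and for library size, which allows levels of different genes to be compared per length.

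TGF-beta is secreted in a latent complex, in which the mature ligand is held by its own propeptide and by a latent TGF-beta binding protein. Once released, it binds the type II receptor TGFBR2, which recruits and activates the type I receptor TGFBR1. The activated receptor phosphorylates SMAD2 and SMAD3, which enter the nucleus with SMAD4 and bind DNA, often together with AP-1. SMAD7 blocks the activated receptor and SKIL restrains SMAD complexes on DNA, and IL11 and SNAI1 are well known target genes. In the liver, this pathway is known for growth arrest of hepatocytes and for fibrosis.

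The targeted gene was first examined in every library. ARHGEF2 had 13.03, 14.40 and 13.95 FPKM in shNC cells and 4.249, 4.004 and 4.817 FPKM in shARHGEF2 cells, a fall to 0.316 of the shNC mean (log2 fold change -1.47, adjusted p = 0.00244 in limma). HepG2 is known to make hepatocyte products such as albumin, alpha-fetoprotein and apolipoproteins, but in these libraries most hepatocyte markers were close to 0 FPKM or had no row in the table, which goes against the HepG2 label: 8 of 15 were in the table, VTN alone reached a mean of 1 FPKM, and none of the others passed 0.907 FPKM in any library. AFP did not exceed 0.0703 FPKM, APOA1 0.248 FPKM and HNF4A 0.0956 FPKM. The summed level of the 8 was 5.92 to 6.24 FPKM in shNC and 6.70 to 7.62 FPKM in shARHGEF2. The epithelial keratins KRT8, KRT18 and KRT19 were expressed, while EPCAM and CDH1 did not exceed 0.0547 FPKM, and the epithelial sum was 354 to 458 FPKM in shNC and 336 to 420 FPKM in shARHGEF2. Of 7 fibroblast markers, COL1A1, COL3A1, DCN and LUM reached a mean of 1 FPKM. PDGFRB, COL1A2 and THY1 did not exceed 0.673, 0.045 and 0.065 FPKM in any library. The fibroblast sum was 39.9 to 52.7 FPKM in shNC and 38.7 to 45.7 FPKM in shARHGEF2. LUM alone had 27.1 to 39.0 FPKM in shNC and 22.5 to 29.5 FPKM in shARHGEF2. No endothelial marker of 4 in the table reached a mean of 1 FPKM (sums of 0.591 to 0.670 and 0.801 to 0.904 FPKM). CD68 alone of 4 leukocyte markers in the table did (sums of 60.6 to 88.0 and 75.3 to 85.7 FPKM). The part of such cells in the results below was not tested, and in bulk RNA fewer cells of a type and less RNA per cell cannot be told apart.

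To show regulatory DNA, the RefSeq sequence upstream of a transcription start is printed for IL11 and for the 3 members whose groups did not overlap. None of these 3 members passed the adjusted test given below. Each sequence is up to 250 bases on GRCh38.p14, written 5′ to 3′ on the strand of the gene and ending at the start site. Capitals mark CAGAC or its reverse complement GTCTG (the short element bound by SMAD3 and SMAD4), TGACTCA or TGAGTCA (AP-1), and GGGCGG or CCGCCC (GC box, bound by SP1). The windows are chr19:41353923-41354168 on the minus strand for TGFB1, from which 4 bases of a TMEM91 exon were cut off, chr11:65558229-65558478 on the minus strand for LTBP3, chr3:30606106-30606355 on the plus strand for TGFBR2 and chr19:55370464-55370713 on the minus strand for IL11. No GENCODE 29 exon touched them as printed.
TGFB1: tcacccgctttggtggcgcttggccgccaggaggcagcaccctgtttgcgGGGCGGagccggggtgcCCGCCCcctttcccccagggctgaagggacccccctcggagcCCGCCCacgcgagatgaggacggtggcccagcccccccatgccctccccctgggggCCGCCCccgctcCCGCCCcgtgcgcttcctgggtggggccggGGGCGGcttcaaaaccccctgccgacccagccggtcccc
LTBP3: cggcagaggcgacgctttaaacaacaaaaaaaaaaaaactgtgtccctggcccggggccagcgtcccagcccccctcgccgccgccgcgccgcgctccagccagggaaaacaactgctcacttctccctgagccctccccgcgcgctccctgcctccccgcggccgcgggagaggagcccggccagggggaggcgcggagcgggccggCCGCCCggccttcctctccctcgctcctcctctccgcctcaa
TGFBR2: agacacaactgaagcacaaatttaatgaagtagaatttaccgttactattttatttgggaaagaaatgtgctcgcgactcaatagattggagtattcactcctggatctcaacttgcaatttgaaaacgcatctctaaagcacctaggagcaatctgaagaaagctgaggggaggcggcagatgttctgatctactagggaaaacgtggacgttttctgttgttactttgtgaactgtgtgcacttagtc
IL11: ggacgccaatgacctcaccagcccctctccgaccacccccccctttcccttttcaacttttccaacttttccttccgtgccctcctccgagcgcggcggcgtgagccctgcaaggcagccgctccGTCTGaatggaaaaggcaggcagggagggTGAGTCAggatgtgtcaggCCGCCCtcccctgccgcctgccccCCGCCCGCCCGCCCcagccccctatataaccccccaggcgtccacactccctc

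The TGFB1 window held 6 GC boxes, had a GC content of 76.8% over its 250 bases and held neither of the other motifs. The LTBP3 window (71.6% GC) held 1 GC box, and the TGFBR2 window (40.8% GC) held none of the motifs, while the other RefSeq start of TGFBR2 held 2 GC boxes. The IL11 window (67.2% GC) held 1 CAGAC element, 1 AP-1 element and 4 GC boxes, 3 of them overlapping. Both strands were searched, and windows of overlapping starts share bases. Of the 26 upstream windows of the 10 members, 10 held a CAGAC element, 1 an AP-1 element and 13 a GC box, against 38.0%, 4.2% and 42.6% of all 35116 RefSeq promoters of this length. The palindromic SMAD element GTCTAGAC was in 0 of the 26 and in 0.182% of all promoters. A match describes the letters and is not evidence of binding.

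Among the 10 members, TGFB1 was by far the most abundant transcript in both groups. In shNC cells the mean levels ran from TGFB1 at 110 FPKM through SMAD7 (7.96), LTBP3 (5.36), SMAD3 (5.16), TGFBR2 (4.26), TGFBR1 (2.93), SMAD4 (1.81), SMAD2 (1.04) and SKIL (0.920) to TGFB2 at 0.158 FPKM. The library values of LTBP3 and SMAD3, of SMAD3 and TGFBR2, and of SMAD2 and SKIL overlapped, so these neighbours were not separated by their spread. In shARHGEF2 cells the first 7 places were the same, SKIL (0.988) stood before SMAD2 (0.949), and the overlapping neighbours were SMAD7 and LTBP3, TGFBR2 and TGFBR1, TGFBR1 and SMAD4, and SKIL and SMAD2. The plot of levels by library shows the wide gap between TGFB1 and the rest.

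**Figure D1:**
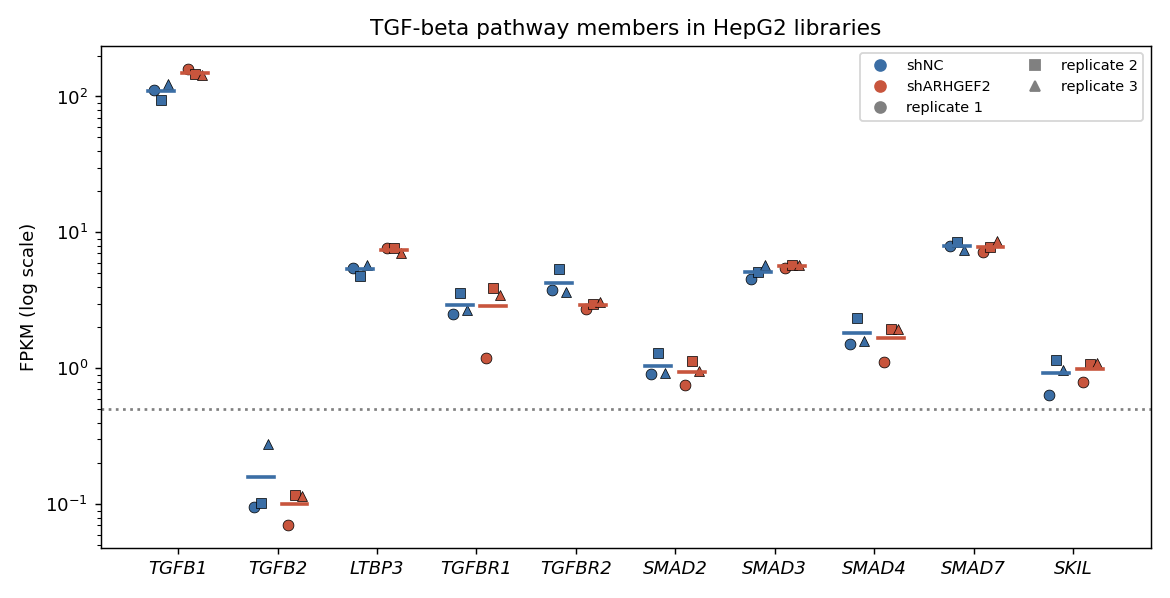
FPKM (log scale) of the 10 members in each of the 3 shNC (blue) and 3 shARHGEF2 (red) libraries, with the marker shape giving the replicate, horizontal bars the group means and the dotted line the filter of 0.5 FPKM. TGFB1 lies at 94.4 to 160 FPKM, TGFB2 below the filter in every library, and the other 8 genes between 0.633 and 8.60 FPKM.

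None of the 9 tested members passed the test between the groups (0 of 9 at an adjusted p under 0.05 in limma, where 0.277% of the 12291 tested genes passed, 0.195% higher and 0.0814% lower in shARHGEF2). At an unadjusted p under 0.05 there were 3 of 9, 2 higher and 1 lower, against 13.7% of all tested genes (8.1% higher and 5.55% lower). In 3 members the groups did not overlap, with TGFB1 and LTBP3 higher in every shARHGEF2 library and TGFBR2 lower, against 20.5% of all tested genes (11.3% higher and 9.17% lower). The median log2 fold change of the 9 was -0.02, and that of all tested genes was -0.0016. The exact permutation test of 3 libraries against 3 cannot give a two-sided p below 0.1, which is the value for each of these 3 genes.

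TGFB1, the ligand made by most cell types, lies on chromosome 19 from 41301587 to 41353911 on the minus strand (GENCODE 29, GRCh38, as are the positions below). It had 112, 94.4 and 123 FPKM in shNC cells and 160, 146 and 143 FPKM in shARHGEF2 cells. Every shARHGEF2 library was above every shNC library, with means of 110 ± 14.6 and 150 ± 9.01 FPKM (SD, n = 3 each), a ratio of 1.36. On the log2(FPKM + 1) scale the difference was 0.45 with a 95% interval of 0.20 to 0.70 and a standard error of 0.11 (unadjusted p = 0.00308, adjusted p = 0.141 in limma). The change thus did not pass the adjusted test, and the adjusted p ranged from 0.0768 to 0.457 over 14 alternatives. The exons of TGFB1 share 215 bases (6.64%) with HNRNPUL1 on the opposite strand, a gene at 44.9 FPKM, and the strand setting used for counting is not given in the sources used here.

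TGFB2, a second ligand of the same receptors, was close to absent (chromosome 1, 218346235 to 218444619, plus strand). Its values were 0.0957, 0.102 and 0.276 FPKM in shNC cells and 0.0707, 0.118 and 0.115 FPKM in shARHGEF2 cells. All 6 were below the filter and the groups overlapped, so it was not tested. Of the summed level of TGFB1, TGFB2 and TGFB3, the TGFB1 transcript made up 99.4% to 99.6% in shNC and 99.6% to 99.8% in shARHGEF2 libraries.

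LTBP3 binds latent TGF-beta and carries it into the matrix (chromosome 11, 65538805 to 65558930, minus strand). It had 5.51, 4.81 and 5.77 FPKM in shNC cells and 7.70, 7.63 and 7.04 FPKM in shARHGEF2 cells. As with TGFB1, the groups were apart, with means of 5.36 ± 0.496 and 7.45 ± 0.364 FPKM (SD, n = 3 each) and a ratio of 1.39. The log2 difference was 0.41 with a 95% interval of 0.16 to 0.66 and did not pass (unadjusted p = 0.00505, adjusted p = 0.166 in limma).

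The receptors gave different pictures. TGFBR2, the ligand-binding type II receptor (chromosome 3, 30606502 to 30694142, plus strand), had 3.75, 5.35 and 3.66 FPKM in shNC cells and 2.72, 2.95 and 3.06 FPKM in shARHGEF2 cells. All shARHGEF2 values were below all shNC values, and the shNC mean of 4.26 ± 0.953 FPKM was drawn up by replicate 2, beside 2.91 ± 0.174 FPKM in shARHGEF2 (SD, n = 3 each). The ratio of the means was 0.684 and the log2 difference -0.41 (95% interval -0.74 to -0.08, unadjusted p = 0.0204, adjusted p = 0.266 in limma). Without shNC replicate 2 the log2 difference was -0.27 (unadjusted p = 0.0512 in limma), so this library sets much of its size.

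TGFBR1, the signalling type I receptor (chromosome 9, 99104038 to 99154192, plus strand), had 2.52, 3.58 and 2.70 FPKM in shNC cells and 1.20, 3.93 and 3.45 FPKM in shARHGEF2 cells. The shARHGEF2 group held both the lowest and the highest of the 6 values, and the log2 difference was -0.10 with a wide 95% interval of -0.81 to 0.60 (adjusted p = 0.928 in limma). It was 0.26 without shARHGEF2 replicate 1, so its direction rests on that library. TGFBR2 made up 57.6% to 59.9% of the summed receptor level in shNC libraries and 69.4%, 42.9% and 47.0% in shARHGEF2 replicates 1 to 3, so these shares overlap between the groups. The level of TGFB1 per level of TGFBR2 was 29.9, 17.6 and 33.7 in shNC and 58.9, 49.5 and 46.8 in shARHGEF2, ratios that combine the differences given above and were not tested apart from them.

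The SMAD genes showed small differences, none of which passed. SMAD3 (chromosome 15, 67063763 to 67195195, plus strand) had 4.58, 5.12 and 5.77 FPKM in shNC and 5.52, 5.81 and 5.77 FPKM in shARHGEF2 cells, a log2 difference of 0.13 (95% interval -0.14 to 0.39, adjusted p = 0.691 in limma), which was 0.057 without shNC replicate 1 and 0.197 without shNC replicate 3. SMAD2 (chromosome 18, 47808957 to 47931146, minus strand) had 0.915, 1.29 and 0.919 FPKM and 0.749, 1.14 and 0.958 FPKM, a log2 difference of -0.07 (95% interval -0.36 to 0.23). SMAD4, the partner shared with the BMP branch (chromosome 18, 51028394 to 51085045, plus strand), had 1.502, 2.345 and 1.578 FPKM and 1.118, 1.942 and 1.956 FPKM, a log2 difference of -0.08 (95% interval -0.48 to 0.32). The groups overlapped for all 3 genes, and the intervals include changes of up to 0.48 on the log2 scale. SMAD3 was the prevailing receptor-regulated SMAD, at 79.8% to 86.3% of the sum of SMAD2 and SMAD3 in shNC and 83.6% to 88.1% in shARHGEF2 libraries.

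The feedback regulators were close in level between the groups. SMAD7, which is itself induced by the pathway (chromosome 18, 48919853 to 48952052, minus strand), had 7.98, 8.46 and 7.43 FPKM in shNC and 7.13, 7.86 and 8.60 FPKM in shARHGEF2 cells. Its log2 difference was -0.02 with a 95% interval of -0.27 to 0.24 (adjusted p = 0.974 in limma), and the groups overlapped throughout. SKIL (chromosome 3, 170357678 to 170396835, plus strand) had 0.633, 1.16 and 0.969 FPKM and 0.798, 1.08 and 1.09 FPKM, a log2 difference of 0.06 (95% interval -0.26 to 0.37, adjusted p = 0.907 in limma). The level of SMAD7 per level of SMAD3 overlapped between the groups, at 1.29 to 1.74 in shNC and 1.29 to 1.49 in shARHGEF2.

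**Figure D2:**
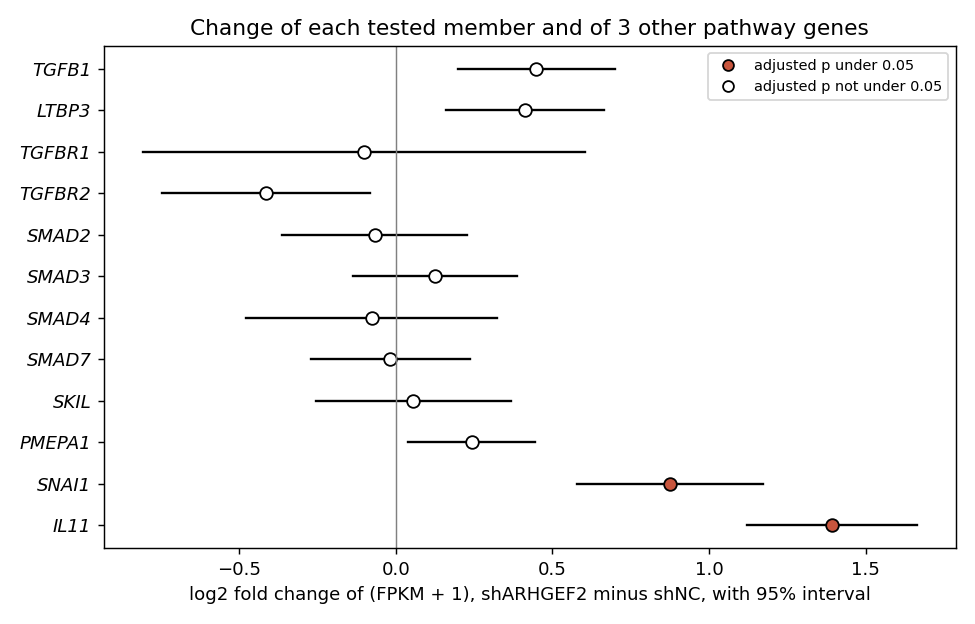
Log2 fold change of FPKM + 1 (shARHGEF2 minus shNC, points) with its 95% interval (lines) for the 9 tested members, PMEPA1, SNAI1 and IL11, with filled points for an adjusted p under 0.05 in limma. The intervals of TGFB1 (0.45), LTBP3 (0.41) and TGFBR2 (-0.41) lie to 1 side of 0 without passing the adjusted test, and IL11 (1.39) and SNAI1 (0.88) pass it.

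The members also shared a pattern between replicates that the groups do not account for. Among the 9 tested members, shNC replicate 2 was the highest of its group for 6 (TGFBR1, TGFBR2, SMAD2, SMAD4, SMAD7 and SKIL) and the lowest for TGFB1 and LTBP3. In the shARHGEF2 group, replicate 1 was the lowest for 7 members and the highest for TGFB1 and LTBP3. The listed transcripts of SMAD4, SKIL, TGFBR1 and SMAD2 had mean GC contents of 40.0% to 44.9%, TGFBR2 had 47.2%, and SMAD3, SMAD7, TGFB1 and LTBP3 had 54.9% to 64.2%. Over all tested genes, deviations were taken from the mean of all 6 libraries, so they also hold any difference between the groups. The 3012 genes with less than 45% GC had a median deviation of 0.18 (log2) in shNC replicate 2 and of -0.18 in shARHGEF2 replicate 1. The 4599 with at least 55% GC had -0.07 and 0.08. After a trend on GC content was removed from each library, an alternative chosen after seeing the data, the log2 differences were 0.41 for TGFB1, 0.35 for LTBP3 and -0.39 for TGFBR2 (adjusted p = 0.1003, 0.0979 and 0.118 in limma).

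**Figure D3:**
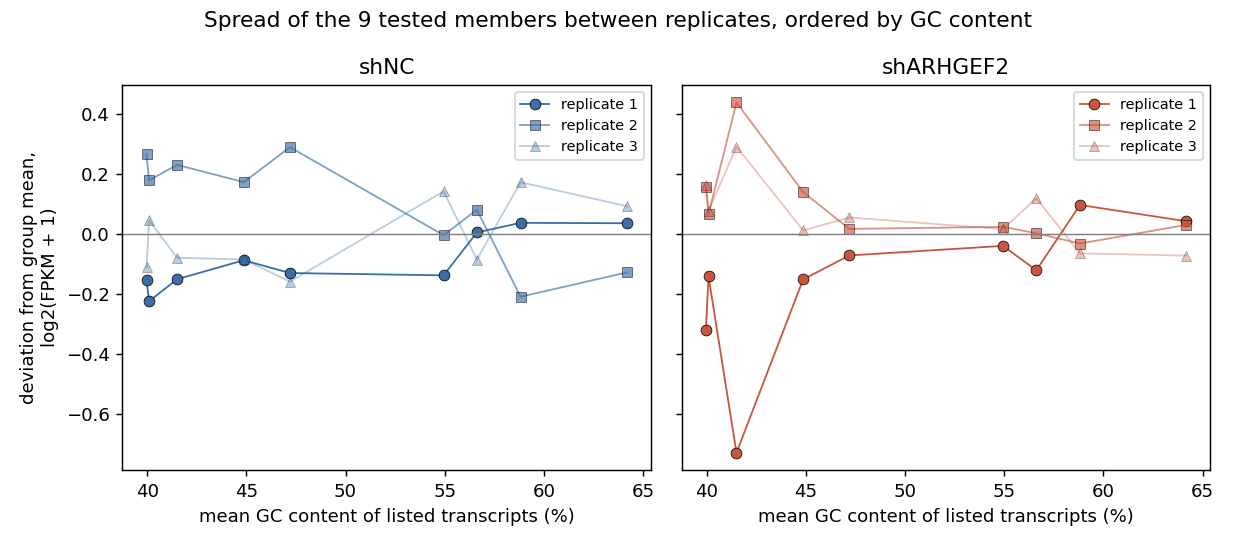
Deviation of log2(FPKM + 1) from the group mean (y axis) for the 9 tested members in the 3 libraries of each group, against the mean GC content of their listed transcripts in percent (x axis), with lines joining the genes of 1 library. In shNC replicate 2 the genes of lower GC content lie above 0 and TGFB1 and LTBP3 below, and shARHGEF2 replicate 1 shows the reverse. SMAD7 (56.6% GC) lies with the genes of lower GC content, at 0.080 in shNC replicate 2 and -0.12 in shARHGEF2 replicate 1. SMAD3 (54.9% GC) lies at -0.004 and -0.040 in these libraries.

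The other genes of the pathway were taken from a list of 67 ligands, activators, receptors, SMADs and regulators, of which 66 were in the table and 48 were tested. None passed (0 of 48 at an adjusted p under 0.05 in limma, smallest adjusted p = 0.0721), 9 had an unadjusted p under 0.05, all of them higher, and the groups did not overlap for 12, of which 11 were higher and 1 was lower. Over all tested genes, 13.7% had an unadjusted p under 0.05 (8.1% higher) and 20.5% had groups apart (11.3% higher and 9.17% lower), so the share of the list with groups apart in either direction was near the background. The median log2 fold change was 0.08. Among ligands, their binding proteins and activators, 10 of 18 tested genes were higher in every shARHGEF2 library, against 11.3% of all tested genes, 0 were lower, against 9.17%, and the median was 0.18. CHRD, 1 of these 10, reached the filter of 0.5 FPKM only through its shARHGEF2 level (means of 0.382 FPKM in shNC and 0.680 FPKM in shARHGEF2). It is also in the counts of the whole list. That list and its groups were written by hand with earlier results of these data known, so their counts are only a description. Of 9 other receptors and co-receptors 0 were apart and 0 had an unadjusted p under 0.05, with a median of 0.05, and of 21 other SMADs, partners and regulators 2 were apart, with a median of -0.01.

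BMP6, a ligand of the BMP branch that regulates hepcidin in the liver, had 35.3, 42.1 and 40.9 FPKM in shNC and 55.4, 60.9 and 58.2 FPKM in shARHGEF2 cells. Its log2 difference of 0.55 had the smallest adjusted p of the list (0.0721 in limma) and did not pass. ITGB5, an integrin subunit that takes part in releasing latent TGF-beta, had 56.9, 60.2 and 64.7 FPKM and 72.9, 76.0 and 72.8 FPKM, a log2 difference of 0.28 (adjusted p = 0.204 in limma).

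The latent binding proteins LTBP1 and LTBP4 were also higher in every shARHGEF2 library, without passing the test. LTBP1 had 2.68, 3.47 and 2.95 FPKM in shNC and 3.89, 4.12 and 3.89 FPKM in shARHGEF2 cells, a log2 difference of 0.30 (adjusted p = 0.319 in limma). LTBP4 had 12.5, 11.9 and 14.4 FPKM and 18.4, 15.6 and 15.8 FPKM, a log2 difference of 0.34 (adjusted p = 0.249 in limma). LTBP2, which was singled out after its values were seen, had 0.669, 0.734 and 0.690 FPKM and 0.911, 0.859 and 0.946 FPKM, a log2 difference of 0.17 (adjusted p = 0.511 in limma). With LTBP3, all 4 LTBP genes were higher in every shARHGEF2 library, as were 11.3% of all tested genes, and none passed. As LTBP2 was added after its values were seen, this count is only a description.

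Among the regulators, PMEPA1, an inhibitor induced by TGF-beta that binds SMAD2 and SMAD3, had 20.7, 18.9 and 19.3 FPKM in shNC and 22.6, 24.0 and 23.6 FPKM in shARHGEF2 cells, a log2 difference of 0.24 (adjusted p = 0.283 in limma). FKBP1A, which binds the type I receptor and keeps it inactive, had 84.0, 85.1 and 87.5 FPKM and 79.5, 78.7 and 80.2 FPKM, a log2 difference of -0.10 (adjusted p = 0.596 in limma). The groups were apart for both genes, and neither passed.

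Of the 85 genes annotated to the KEGG pathway, 61 were tested and 0 passed, with 7 at an unadjusted p under 0.05 (6 higher and 1 lower), 11 with groups apart (8 higher and 3 lower) and a median log2 fold change of 0.003. Over both directions together, these counts were below the shares over all tested genes, 13.7% at an unadjusted p under 0.05 and 20.5% with groups apart. By direction, the shares over all tested genes were 8.1% higher and 5.55% lower at an unadjusted p under 0.05. With groups apart they were 11.3% higher and 9.17% lower. Only the lower counts of the pathway were below these shares. CHRD, which reached the filter only through its shARHGEF2 level, is among the higher genes in both comparisons. Besides genes given above, INHBE, an activin subunit made in liver, had 2.09, 2.11 and 1.98 FPKM in shNC and 2.45, 2.74 and 2.68 FPKM in shARHGEF2 cells, with a log2 difference of 0.24 (adjusted p = 0.378 in limma). The ubiquitin ligase subunits SKP1 and CUL1 were lower in every shARHGEF2 library, at 3.13 to 3.88 against 4.02 to 5.26 FPKM and 3.50 to 5.06 against 5.19 to 7.03 FPKM, with log2 differences of -0.27 and -0.32 (adjusted p = 0.417 and 0.435 in limma). The value of CUL1 was -0.17 without shARHGEF2 replicate 1 and -0.20 without shNC replicate 2.

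Genes commonly induced by the pathway were examined as its readout, with a list of 31 genes, of which 30 were in the table and 26 were tested. At an adjusted p under 0.05 in limma, IL11 and SNAI1 were higher and 0 of the 26 were lower. The fitted value was higher for 16 and lower for 10. At an unadjusted p under 0.05 there were 9 (8 higher and 1 lower), and 9 had groups apart (8 higher and 1 lower). Over all tested genes 0.277% passed, 13.7% had an unadjusted p under 0.05 (8.1% higher) and 20.5% had groups apart (11.3% higher). The list was written with the higher IL11 known, so its counts are a description. The median log2 fold change was 0.25 over 22 TGF-beta targets and -0.01 over 4 BMP targets, of which 0 had an unadjusted p under 0.05. The plot of the pathway lists shows this spread of single genes.

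**Figure D4:**
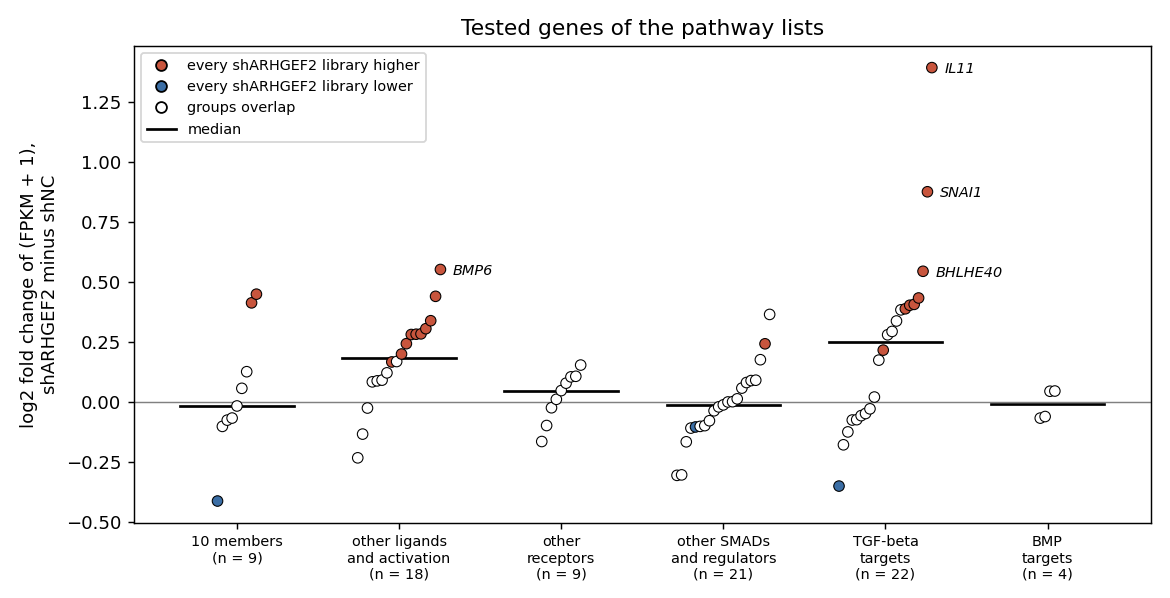
Log2 fold change of FPKM + 1 (shARHGEF2 minus shNC, y axis) of each tested gene in the members and 5 lists of the pathway (x axis), with horizontal bars for medians, red points where every shARHGEF2 library was higher, blue where every one was lower and white where the groups overlapped. The medians of the ligand list (0.18) and of the TGF-beta targets (0.25) lie above 0, those of the members (-0.02) and of the other SMADs and regulators (-0.01) near it.

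IL11, a cytokine that acts on fibroblasts and epithelial cells (chromosome 19, 55364389 to 55370463, minus strand), had 8.44, 6.90 and 9.40 FPKM in shNC cells and 23.5, 22.7 and 23.2 FPKM in shARHGEF2 cells. Its mean rose 2.80-fold, from 8.25 ± 1.26 to 23.1 ± 0.439 FPKM (SD, n = 3 each), with a log2 difference of 1.39 (95% interval 1.12 to 1.66, adjusted p = 0.00479 in limma). It passed in 12 of 14 alternatives, with adjusted p between 0.00380 and 0.155, the latter with no filter on low genes. The log2 difference of TGFB1 was 0.45 in the same libraries.

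SNAI1, a transcription factor of epithelial to mesenchymal transition, had 9.58, 8.33 and 11.9 FPKM in shNC cells and 19.1, 19.7 and 17.9 FPKM in shARHGEF2 cells. The groups were apart, and the log2 difference was 0.88 (95% interval 0.58 to 1.17, adjusted p = 0.0454 in limma). This call stood close to the threshold and passed in 4 of 14 alternatives, with adjusted p between 0.0214 and 0.312.

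Other targets of the list had groups apart without passing. COL4A1, a basement membrane collagen, had 12.3, 14.7 and 14.4 FPKM in shNC and 18.0, 19.2 and 18.5 FPKM in shARHGEF2 cells, a log2 difference of 0.40 (adjusted p = 0.152 in limma). BHLHE40, a transcriptional repressor, had 66.5, 71.2 and 97.3 FPKM and 110, 120 and 109 FPKM, a log2 difference of 0.54 (adjusted p = 0.152 in limma), and it passed without shNC replicate 3 (adjusted p = 0.0323). TAGLN, an actin-binding protein that also responds to serum response factor, was lower in every shARHGEF2 library, with 2.69, 1.89 and 2.12 FPKM and 1.498, 1.731 and 1.345 FPKM and a log2 difference of -0.35 (adjusted p = 0.307 in limma).

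CCN2, a matricellular protein widely used as a readout of the pathway, was singled out after its values were seen. It had 4.71, 4.86 and 5.75 FPKM in shNC and 5.01, 5.21 and 5.32 FPKM in shARHGEF2 cells, with a log2 difference of 0.02 (adjusted p = 0.970 in limma). The groups overlapped, beside the higher IL11 and SNAI1 in the same libraries.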

How the data were processed

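The authors deposited FPKM values for 27605 genes in 6 RNA sequencing libraries, grouped here by their labels. The submitters' processing notes name hg19, cutadapt 1.9, HISAT2 2.0.4, UMI-tools, StringTie 1.3.4d, DESeq2 and edgeR without their roles. The authors' columns of fold changes, p-values, adjusted p-values and up or down marks were not used. Without further scaling, the 12291 genes averaging 0.5 FPKM or more were modelled as log2(FPKM + 1) using limma 3.58.1 (R 4.3.3), with no block, a mean-variance trend and robust variances (statmod 1.5.0), tested on simulated data. P-values were adjusted over all of these by Benjamini-Hochberg with a threshold of 0.05. Fold changes on this scale understate the change of low genes. Single members were also compared by two-sided exact permutation tests.

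Read counts were not recovered: 33.1% to 34.6% of low values lay within 0.1 of a whole number at the best spacing, where chance gives 20%. That spacing, searched from 15000000 to 30000000 read pairs, gave 20120000 to 23280000 pairs per library, so depth is known only roughly and no counting interval was computed. GC content and positions came from GENCODE 29 on GRCh38 (94.7% of the 112516 listed transcripts found), a build other than the hg19 of the processing notes. The members and lists were chosen with earlier results of these data known. Named genes were the members, ARHGEF2, IL11, called genes of the lists, and per list up to 4 higher and 4 lower genes of at least 1 FPKM with groups apart, by smallest p, and LTBP2 and CCN2 fall outside this rule. Alternatives changed the block, the pseudocount (to 0.1), the filter, the scaling, the variance model and the libraries included, and, chosen after seeing the data, removed a GC trend (loess span 0.3).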

Additional observations from a re-analysis of the deposited data

How the results depend on the processing

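No member passed under any of the 14 alternatives. TGFB1, LTBP3 and SMAD3 kept a higher and TGFBR2 a lower fitted value in all of them. With single libraries left out, the log2 difference ran from -0.32 to 0.26 for TGFBR1 (0.01 without shNC replicate 2, 0.26 without shARHGEF2 replicate 1), from -0.14 to 0.019 for SMAD2 (0.019 and 0.0083), from -0.16 to 0.083 for SMAD4 (0.056 and 0.083), from -0.076 to 0.043 for SMAD7 (0.023 and 0.043) and from -0.055 (without shNC replicate 1) to 0.15 for SKIL, so these 5 had no stable direction. SMAD2 was not tested with a filter of 1 FPKM in 3 or more libraries. The pathway lists other than the targets had 0 calls throughout.

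The number of genes called, 34, was 1 with no filter, 54 with 1 FPKM in 3 or more libraries, 19 with quantile normalization, 7 with median centring, 7 without trend or robust variances, and 6 to 102 with single libraries left out (102 without shNC replicate 3, 6 without shARHGEF2 replicate 3, and 13 to 15 without each of the others). The target list had 0 calls with no filter, 1 with quantile normalization, with median centring and without trend or robust variances, and 1 to 3 with single libraries left out (3 without shNC replicate 3). The knockdown of ARHGEF2 (log2 difference -1.47) did not pass with no filter (adjusted p = 0.0701 in limma). The causes of these shifts were not tested. The split of calls, 24 higher and 10 lower, was 12 and 7 with quantile normalization and 4 and 3 with median centring. With no filter the 1 call was lower. Lower calls also outnumbered higher calls in 3 of the fits with a library left out. There were 5 higher and 8 lower without shNC replicate 1 and likewise without shARHGEF2 replicate 1, and 6 higher and 9 lower without shARHGEF2 replicate 2. Leaving out shNC replicate 3 gave 76 higher and 26 lower.

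Replicate numbers are shared by the groups, and the correlations of the deviations of same-numbered libraries were 0.184, 0.159 and -0.105. Libraries numbered 1 correlated best with each other, as did those numbered 2, but those numbered 3 did not. These values do not settle whether the numbers pair the libraries. With the replicate block, 0 genes were called (1976 at an unadjusted p under 0.05), 0 members and 0 targets, and ARHGEF2 had a log2 difference of -1.47 (adjusted p = 0.0716 in limma). IL11 had a log2 difference of 1.39 (adjusted p = 0.0859). Since the values are FPKM without counts, the counting error behind the members near 1 FPKM (SMAD2 and SKIL) could not be given.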
